A study of Mus musculus with 6 samples.

Results

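The S100 genes encode small calcium-binding proteins, and 8 of them, S100a1, S100a4, S100a6, S100a8, S100a9, S100a10, S100a11 and S100a13, were followed on arrays of leukocytes sorted from mouse subcutaneous adipose tissue (AT). They were selected by name, as the probe sets whose platform annotation gives exactly 1 of these symbols. Each gene was read by 1 probe set, so that 8 of 45037 probe sets and 8 of 17097 genes are described. The samples came from 3 Klf3-/- and 3 WT male littermates of the FVB/NJ strain, the offspring of heterozygous crosses, all aged 12 weeks, fed chow, housed at 22 °C and untreated. KLF3 is a transcriptional repressor that binds CACCC-type DNA elements, and the Klf3-/- mice lack it in every cell and not in the sorted cells alone. Viable CD45+ CD11b+ F4/80+ cells that were also Siglec-F+ and high in side scatter were sorted from the stromal vascular fraction (SVF), the non-adipocyte cells released by collagenase, and the labels call them eosinophils. RNA of each mouse was amplified and hybridised to 1 GeneChip HT MG-430PM array. The comparison asked how loss of KLF3 altered gene expression in these cells.

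S100 proteins carry EF-hand calcium-binding loops and mostly work as dimers that, on binding calcium, expose a surface for partner proteins. S100A8 and S100A9 form calprotectin, which is stored in large amounts in neutrophils and is also made by monocytes, chelates zinc and manganese and signals through TLR4 and RAGE once released. S100A10 binds annexin A2 at the cell membrane, where the complex promotes plasmin formation, while S100A4 and S100A6 are linked to cell motility and are abundant in fibroblasts and other mesenchymal cells. S100A11 binds annexin A1, S100A13 takes part in the unconventional release of FGF1 and IL-1α, and S100A1 is best known for regulating calcium cycling in cardiac and skeletal muscle.

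The 8 genes lie on mouse chromosome 3 within a run of 70 protein-coding genes in the RefSeq annotation of GRCm38.p6. S100a1 and S100a13 are neighbours at one end, S100a8 and S100a9 are neighbours, and S100a11 and S100a10 are neighbours at the other end. RefSeq promoter windows, from 250 bases before to 50 bases after the annotated start, were given for 7 of the 8 genes and not for S100a10. Those of S100a6, which had the smallest p of the 8 genes, and of S100a8 and S100a9, whose levels moved together across arrays, are printed 5′ to 3′ on the strand of the gene. Capitals mark CACCC, the core of the element that KLF3 recognises, and TATAAA, the TATA box, each searched on both strands. S100a6 was read from the plus strand (chr3:90612644-90612943), S100a8 from the plus strand (chr3:90668821-90669120) and S100a9 from the minus strand (chr3:90695672-90695971), all in GRCm38.p6.
S100a6: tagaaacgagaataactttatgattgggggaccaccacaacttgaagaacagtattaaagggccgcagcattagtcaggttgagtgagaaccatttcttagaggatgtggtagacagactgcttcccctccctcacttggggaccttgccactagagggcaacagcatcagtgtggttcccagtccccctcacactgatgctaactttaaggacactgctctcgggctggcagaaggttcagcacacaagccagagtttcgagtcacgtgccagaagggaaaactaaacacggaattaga
S100a8: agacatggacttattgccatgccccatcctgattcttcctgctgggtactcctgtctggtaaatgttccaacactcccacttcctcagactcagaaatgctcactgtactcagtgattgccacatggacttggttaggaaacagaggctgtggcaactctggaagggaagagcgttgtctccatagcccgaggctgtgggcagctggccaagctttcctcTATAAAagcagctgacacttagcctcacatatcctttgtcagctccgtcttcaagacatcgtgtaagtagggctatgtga
S100a9: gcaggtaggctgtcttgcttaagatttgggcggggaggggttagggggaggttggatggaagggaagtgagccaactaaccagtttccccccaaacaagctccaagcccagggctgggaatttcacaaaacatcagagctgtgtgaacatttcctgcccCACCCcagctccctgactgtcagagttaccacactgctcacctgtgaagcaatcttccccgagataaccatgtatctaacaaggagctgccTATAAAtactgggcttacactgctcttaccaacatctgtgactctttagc

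CACCC was found in 4 of the 7 windows, those of S100a1, S100a4, S100a9 and S100a13, whereas 57.5% of 32851 windows of the same length held it. The longer form CCNCACCC, which contains CACCC, was found in 1 of the 7, that of S100a9, against 16.6% of all windows. TATAAA was found in 3 of the 7, those of S100a4, S100a8 and S100a9, against 13.6% of all windows. In S100a4 and S100a8 it began 31 and 30 bases before the annotated start, and in S100a9 it began at the annotated start. The S100a1 and S100a13 genes are transcribed away from each other, and their windows share 204 bases, so their counts are not separate. The letters CACCC were not in the windows of S100a6, S100a8 and S100a11.

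The deposited values are linear intensities in arbitrary units, with array medians between 30.3 and 58.7. Quantile normalisation of the log2 values therefore came first, and limma was then used to compare genotypes, with Benjamini-Hochberg adjustment across the 45037 probe sets. For Klf3, 5 of its 6 probe sets gave more signal and 1 gave less signal on every Klf3-/- array than on any WT array. Where they lie in relation to the disruption was not known here, so the genotype was not checked by them. A background of 5.10 log2 units was set from olfactory receptor probe sets, and 55.3% of probe sets lay above it. Of 13 measured eosinophil markers 5 lay above this level, while the defining ones, Siglecf, Ccr3, Epx and Prg2, lay below it, so the labelled cell type was not borne out by its own markers and the term "sorted cells" is used for the samples.

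All 8 S100 genes lay above background and all 8 had a higher mean in Klf3-/- than in WT sorted cells. A log2 fold change above 0 was seen for 45.3% of all probe sets and, equally, for 45.3% of those above background. The median log2 fold change, Klf3-/- over WT, was 0.67 over the 8 genes and −0.03 over all probe sets, and the 8 values ranged from 0.19 for S100a13 to 1.00 for S100a6. No S100 gene passed an adjusted p of 0.05, nor did any other probe set (0% of 45037). At an unadjusted p under 0.05, limma gave 1398 probe sets higher and 1077 lower, and an analysis of variance per probe set gave 900 higher and 1340 lower, with 0 past adjustment. S100a6 and S100a10 were the 2 of 8 at an unadjusted p under 0.05 and higher, as were 3.1% of all probe sets. The same 2 genes were the ones whose Klf3-/- arrays all lay above all WT arrays, as was so for 4.49% of all probe sets.

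**Figure D1:**
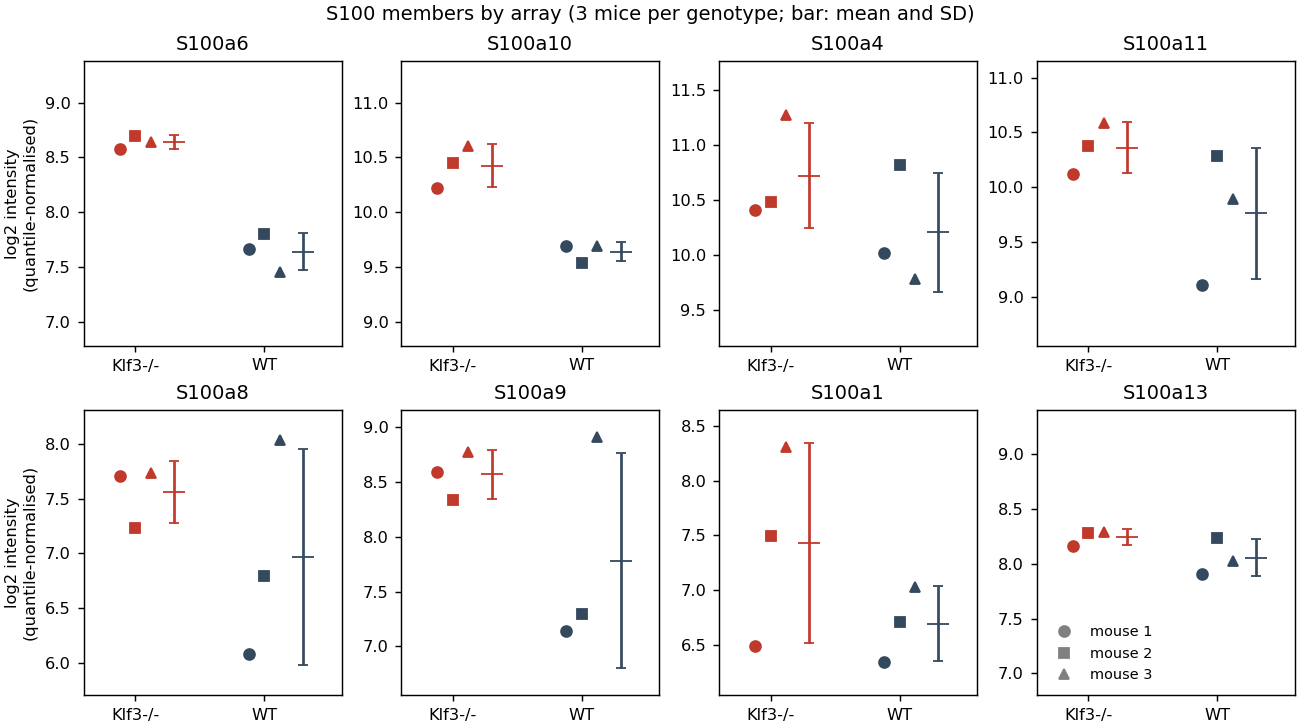
Log2 intensity after quantile normalisation of the 8 S100 genes on each array, with Klf3-/- mice in red and WT mice in blue, symbols for mice 1 to 3, and the mean ± SD (n = 3) beside them. The vertical axes span the same number of log2 units but start at different levels. S100a6 and S100a10 show no overlap between genotypes, while WT mouse 3 reaches the Klf3-/- level for S100a8 and S100a9.

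S100a6, or calcyclin, which binds the calcyclin-binding protein CACYBP and annexins, had the largest log2 fold change of the 8. Its deposited intensities were 413, 653 and 292 in Klf3-/- mice 1 to 3, against 173, 332 and 110.0 in WT mice 1 to 3. On this scale the genotypes overlapped, as WT mouse 2 lay above Klf3-/- mouse 3. After quantile normalisation the values were 8.57, 8.70 and 8.64 log2 units in Klf3-/- mice, against 7.66, 7.80 and 7.46 in WT mice. The lowest Klf3-/- array then lay 0.78 log2 units above the highest WT array, and the spread within each genotype was small, with means of 8.64 ± 0.06 for the 3 Klf3-/- mice and 7.64 ± 0.17 for the 3 WT mice (SD). This gave a log2 fold change of 1.00 (standard error 0.18, 95% interval 0.58 to 1.42), a fold of 2.00, with an unadjusted p of 0.000786, the 47th smallest of all probe sets, and an adjusted p of 0.663 from limma. Mice of the same number were taken as pairs, and the differences within pairs 1 to 3 were 0.91, 0.90 and 1.19 log2 units. An exact two-sided permutation test gave p = 0.1, the smallest p that 3 mice against 3 allow.

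S100a10, also called p11, binds annexin A2 at the cell membrane and serves as a docking site for plasminogen. Its deposited intensities were 1265, 2086 and 1207 in Klf3-/- mice 1 to 3 and 693, 1178 and 503 in WT mice 1 to 3. Every Klf3-/- array thus lay above every WT array before normalisation as well, which held for S100a9 and S100a10 among the 8 genes and for 3.61% of all probe sets. After normalisation the values were 10.22, 10.45 and 10.61 log2 units in Klf3-/- mice, against 9.69, 9.54 and 9.69 in WT mice, with a gap of 0.53 between the groups. A log2 fold change of 0.79 was obtained (standard error 0.19, 95% interval 0.35 to 1.23), a fold of 1.73, with limma's unadjusted p at 0.00372 and its adjusted p at 0.736. S100a10 was higher by 0.53, 0.92 and 0.92 log2 units within pairs 1 to 3, and p was again 0.1 in the exact permutation test.

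S100a4, a protein of fibroblasts and motile leukocytes that binds non-muscle myosin, had deposited intensities of 1451, 2130 and 2000 in Klf3-/- mice 1 to 3, against 878, 2741 and 534 in WT mice 1 to 3. The highest intensity of the 6 was that of WT mouse 2. The normalised values were 10.41, 10.48 and 11.27 log2 units in Klf3-/- mice and 10.02, 10.82 and 9.78 in WT mice. Here the genotypes overlapped, with Klf3-/- mouse 3 the highest. Its log2 fold change was 0.52 (standard error 0.35, 95% interval −0.31 to 1.34, adjusted p = 0.934 from limma), and it was 0.24 without Klf3-/- mouse 3 and 0.83 without WT mouse 2. Within pairs 1 and 3 the Klf3-/- array was higher by 0.39 and 1.49 log2 units, and within pair 2 the difference was −0.34.

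S100a11, a partner of annexin A1 that takes part in membrane repair, had deposited intensities of 1174, 2002 and 1189 in Klf3-/- mice 1 to 3 and 465, 1968 and 575 in WT mice 1 to 3. The normalised values were 10.12, 10.37 and 10.59 log2 units in Klf3-/- mice and 9.11, 10.29 and 9.89 in WT mice. WT mouse 2 lay among the Klf3-/- arrays and the other WT mice below them. For S100a11 the log2 fold change was 0.60 (standard error 0.32, 95% interval −0.16 to 1.36, adjusted p = 0.910 from limma), with 0.27 when WT mouse 1 was left out and 0.87 when WT mouse 2 was left out. The differences within pairs 1 to 3 were 1.01, 0.09 and 0.70 log2 units.

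S100a8 and S100a9, the subunits of calprotectin, both had WT arrays that were spread more widely than the Klf3-/- arrays. S100a8 gave deposited intensities of 230.0, 230.3 and 158.5 in Klf3-/- mice 1 to 3 and 58.2, 156 and 160.3 in WT mice 1 to 3. Its normalised values were 7.71, 7.23 and 7.74 log2 units in Klf3-/- mice, against 6.08, 6.80 and 8.03 in WT mice. WT mouse 1 was the lowest and WT mouse 3 the highest of the 6. S100a8 thus had a log2 fold change of 0.59 (standard error 0.47, 95% interval −0.52 to 1.70, adjusted p = 0.949 from limma). The S100a8 probe set is of the class that may hybridise to several transcripts. Without WT mouse 1 its log2 fold change was 0.15, and without WT mouse 3 it was 1.14.

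S100a9 gave deposited intensities of 419, 505 and 317 in Klf3-/- mice 1 to 3 and 121, 227 and 292 in WT mice 1 to 3. Its normalised values were 8.59, 8.34 and 8.78 log2 units in Klf3-/- mice and 7.14, 7.29 and 8.91 in WT mice. WT mouse 3 was again the highest of the 6, so that the genotypes overlapped after normalisation and not before it. The log2 fold change was 0.79 (standard error 0.46, 95% interval −0.30 to 1.88, adjusted p = 0.914 from limma), with 0.47 without WT mouse 1 and 1.36 without WT mouse 3. Within pairs 1 to 3 the differences were 1.45, 1.04 and −0.14 log2 units for S100a9 and 1.63, 0.44 and −0.29 for S100a8.

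S100a1 had deposited intensities of 100.3, 278 and 234 in Klf3-/- mice 1 to 3 and 70.1, 146 and 83.1 in WT mice 1 to 3. After normalisation these were 6.49, 7.49 and 8.31 log2 units in Klf3-/- mice and 6.35, 6.71 and 7.03 in WT mice. Of the 8 genes S100a1 had the widest spread among Klf3-/- arrays, and Klf3-/- mouse 1 lay among the WT arrays. The log2 fold change was 0.74 (standard error 0.45, 95% interval −0.32 to 1.79, adjusted p = 0.917 from limma), and it was 0.30 without Klf3-/- mouse 3 and 1.21 without Klf3-/- mouse 1. The Klf3-/- array was higher within each of pairs 1 to 3, by 0.15, 0.78 and 1.28 log2 units. With the mouse number as a replicate block, limma's unadjusted p for S100a1 was 0.0387, against 0.143 without it, and its adjusted p was 0.695.

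S100a13 had the smallest log2 fold change of the 8. Its deposited intensities were 312, 483 and 231 in Klf3-/- mice 1 to 3, against 205, 464 and 159.9 in WT mice 1 to 3. Its normalised values were 8.16, 8.28 and 8.29 log2 units in Klf3-/- mice and 7.91, 8.24 and 8.03 in WT mice, and the genotypes overlapped. The log2 fold change of 0.19 (standard error 0.18, 95% interval −0.24 to 0.61, adjusted p = 0.954 from limma) had an interval that includes 0. Within pairs 1 to 3 the differences were 0.26, 0.04 and 0.27 log2 units.

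**Figure D2:**
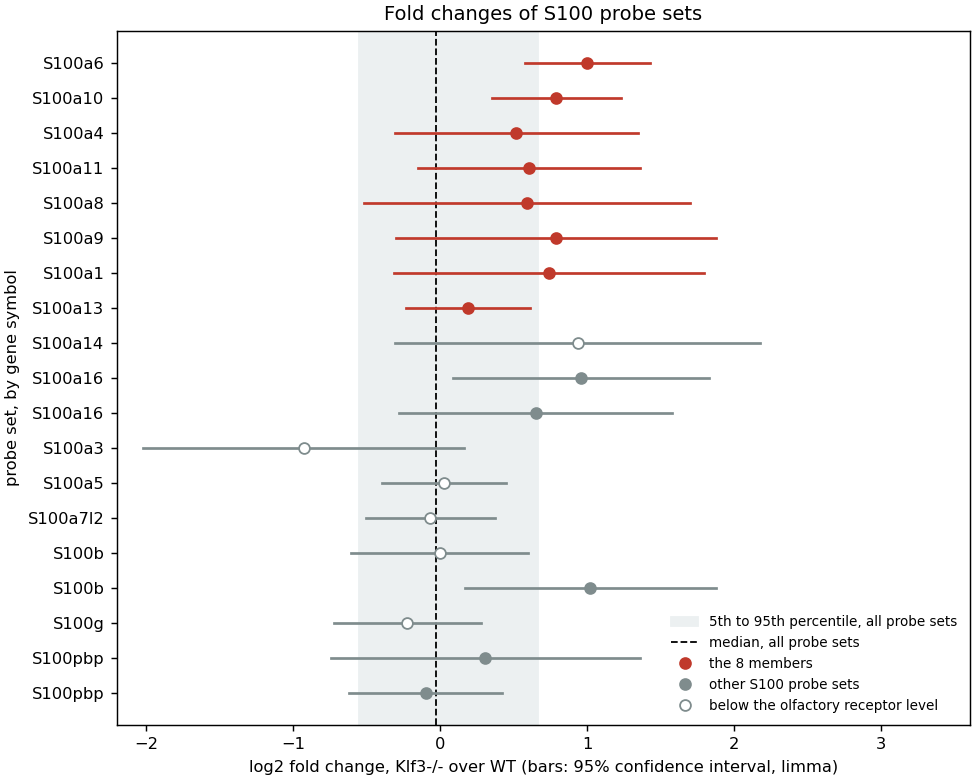
Log2 fold change, Klf3-/- over WT, with 95% confidence intervals from limma, of the 8 S100 genes (red) and of 11 probe sets annotated to other S100 genes or to S100pbp, which encodes an S100P-binding protein (grey, open where below background). The shaded band spans the 5th to 95th percentile of all probe sets, −0.55 to 0.66, and the dashed line is their median. Intervals of S100a6 and S100a10 lie above 0 and those of the other 6 genes include 0. Among the grey probe sets, the dimmer one of S100a16 and the brighter one of S100b also have intervals above 0.

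Counted over the 8 genes, 21 of 24 within-pair differences were above 0. The share over all probe sets was not computed for this count. For 5 of the 8 genes, S100a1, S100a6, S100a10, S100a11 and S100a13, all 3 pairs were above 0, which was so for 11.5% of all probe sets. The genes share the same 6 arrays and are not independent of each other. The other 3, S100a4, S100a8 and S100a9, each had 1 pair below 0, pair 2 for S100a4 and pair 3 for the calprotectin genes.

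The levels of the calprotectin genes followed each other across arrays. Over the 6 arrays the log2 values of S100a8 and S100a9 correlated with Pearson's r = 0.957 (exact permutation p = 0.00139, the smallest that 6 arrays allow, and 0.00556 after adjustment over 4 pairs of measures) and with Spearman's rho = 1 (exact permutation p = 0.00278, adjusted 0.0111). Leaving out WT mice 1 and 2, the arrays farthest from the median of S100a8, gave r = 0.964. After subtraction of each genotype's mean, r was 0.954. On the deposited log2 scale r was 0.958 (adjusted exact permutation p = 0.0139), and Spearman's rho was 0.943 (adjusted exact permutation p = 0.0667). After subtraction of each mouse number's mean, which was computed after the data had been seen, r was 0.932. The difference of S100a8 minus S100a9 averaged −1.01 ± 0.11 log2 units over Klf3-/- mice and −0.81 ± 0.29 over WT mice (SD, n = 3 mice of each genotype), a difference of −0.20 (exact two-sided permutation p = 0.4).

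**Figure D3:**
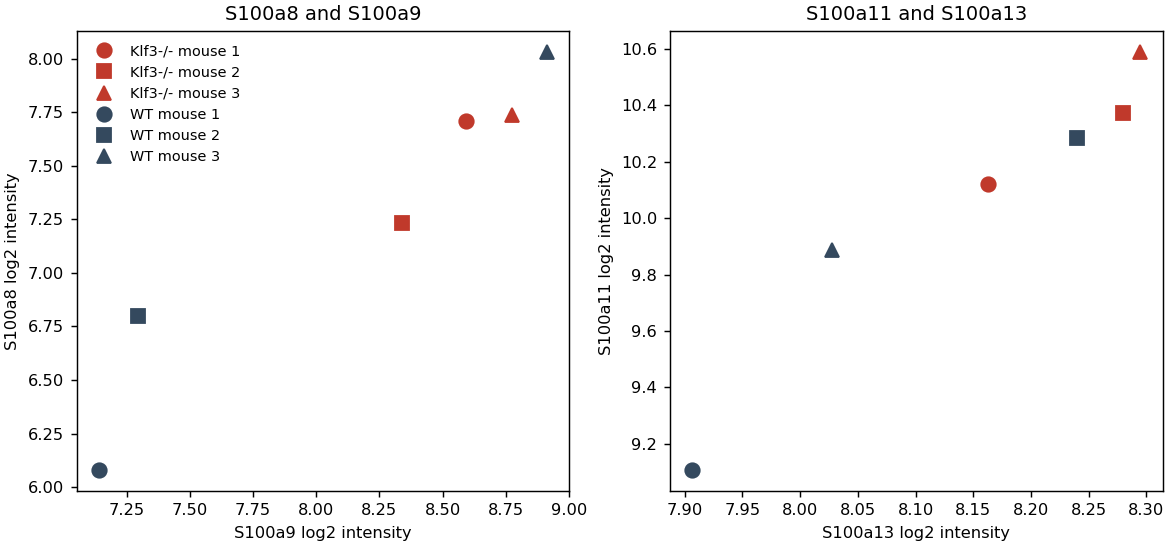
Log2 intensities after quantile normalisation of S100a8 against S100a9 and of S100a11 against S100a13, 1 point per array, with Klf3-/- in red and WT in blue and symbols for mice 1 to 3. In both plots the 6 arrays fall in the same order on each axis, with WT mouse 1 the lowest.

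S100a11 and S100a13 also ordered the 6 arrays alike, with WT mice 1 and 3 lowest and Klf3-/- mice 2 and 3 highest. This pair was chosen after its values were seen and was not tested. Over all 28 pairs of the 8 genes, Pearson's r across the 6 arrays ran from 0.05 to 0.96. S100a6 and S100a10 fell into separate clusters by genotype, so their correlations over all arrays take in the difference between genotypes. With that limit, S100a10 and Anxa2 gave r = 0.834 (exact permutation p = 0.0389, adjusted 0.0667), and 0.944 (adjusted 0.0139) on the deposited log2 scale. S100a6 and Cacybp gave r = −0.800 (exact permutation p = 0.05, adjusted 0.0667), and 0.401 (adjusted 0.429) on the deposited log2 scale. Spearman's rho passed adjustment for neither pair on either scale.

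Other genes with a similar pattern over the 6 arrays were sought among 2995 genes above background whose SD over the arrays was at least 0.5 log2 units. For S100a6 the closest was Igfbp6 (r = 0.993), which encodes an IGF-binding protein, and the third was Pcolce (0.982), an enhancer of procollagen processing. For S100a10 they were the lipid kinase gene Pi4k2b (0.993), the interferon-induced Ifi27l2a (0.992) and the ficolin gene Fcna (0.990). For S100a1 they were the chemokine gene Ccl9 (r = 0.9995), the sodium/proton exchanger gene Slc9a9 (0.993) and Retnla (0.991), a marker of alternatively activated macrophages. For S100a4 they were Pgap6, the leukotriene C4 synthase gene Ltc4s and Kctd21 (0.962, 0.955 and 0.943).
The genes most like S100a8 were Plcd1 (r = 0.983), Pigh (0.969) and Ntn1 (0.947), and those most like S100a9 were 4933412E12Rik (0.983), Phldb2 (0.963) and Pigh (0.962). Zfp809 (r = 0.982), Trmt5 (0.971) and Rab27b (0.960), a GTPase of secretory vesicles, were most like S100a11, while Trmt5 (0.976), Tcaf1 (0.9751) and Cpne8 (0.962) were most like S100a13. These are descriptions over 6 arrays, chosen as the highest of many, with no test, and for S100a6 and S100a10 they take in the difference between genotypes. S100a8 and S100a9 thus shared Pigh among their 3, and S100a11 and S100a13 shared Trmt5.

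Of 10 other genes of the S100 list, 7 were measured and 3 lay above background, with 5 higher, 2 lower and none past adjustment. The list takes in S100pbp, which is not an S100 gene and was above background and higher. It leaves out S100a7l2, which lay below background (log2 fold change −0.07). S100a16, which lies near S100a13 on the chromosome, was read by 2 probe sets at log2 fold changes of 0.96 (unadjusted p = 0.0354, adjusted p = 0.879 from limma) and 0.65 (unadjusted p = 0.143, adjusted p = 0.917 from limma). S100b, known as a marker of glia and adipocytes, was also read by 2 probe sets, at 1.02 (unadjusted p = 0.0255, adjusted p = 0.868 from limma) for the brighter one and −0.01 for the other, which lay below background. The genes between the first and last member on the chromosome, mostly of the epidermal differentiation complex, numbered 62, of which 39 were measured and 6 were above background. Among these 39, S100a3, S100a5, S100a14 and S100a16 were also counted in the S100 list. The log2 fold change was above 0 for 15 of these 39 and below 0 for 24, its median was −0.02, and Ivl, which encodes the cornified envelope protein involucrin, was the 1 at an unadjusted p under 0.05, with a log2 fold change of −0.43 (adjusted p = 0.883 from limma).

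Genes encoding S100 binding partners were split in direction. The median log2 fold change of the 15 measured was −0.02, with 7 above 0 and 8 below. None passed an adjusted p of 0.05, while at an unadjusted p under 0.05 there were 3 higher and 2 lower. Of all probe sets, 3.1% were higher at that unadjusted threshold, and 1077 of 45037 were lower. Anxa1, which encodes the S100A11 partner annexin A1, had values of 10.18, 10.72 and 10.43 log2 units in Klf3-/- mice and 8.46, 9.47 and 9.38 in WT mice (log2 fold change 1.34, adjusted p = 0.736 from limma). Ahnak, a giant scaffold bound by the S100A10 and annexin A2 complex, had 11.56, 11.48 and 11.80 log2 units in Klf3-/- mice and 10.66, 10.79 and 11.12 in WT mice (log2 fold change 0.76, adjusted p = 0.834 from limma). Neither gene overlapped between genotypes, and the same was true of Anxa2, with 11.001, 11.11 and 11.30 log2 units in Klf3-/- mice and 10.38, 10.84 and 10.70 in WT mice (log2 fold change 0.49, adjusted p = 0.901 from limma). Thus 3 of the 15 had every Klf3-/- array above every WT array, as had 4.49% of all probe sets. Another 3, Cacybp, Il1a and Lcp1, had every Klf3-/- array below every WT array. The share of all probe sets in this direction was not computed. Cacybp, the partner of S100A6, lay the other way, at 8.91, 8.87 and 8.27 log2 units in Klf3-/- mice and 9.37, 9.32 and 9.24 in WT mice (log2 fold change −0.62, adjusted p = 0.868 from limma). Il1a, whose product leaves cells together with S100A13, was at −1.09 log2 units, Klf3-/- over WT (adjusted p = 0.868 from limma).

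Of 7 measured genes of the plasminogen system that S100A10 serves, 5 were higher and 2 lower, and none passed an adjusted p of 0.05. Anxa2 and the plasminogen activator genes Plau and Plat were the 3 higher at an unadjusted p under 0.05, as were 3.1% of all probe sets. Plau read 7.44, 7.95 and 7.35 log2 units in Klf3-/- mice and 5.90, 6.51 and 6.75 in WT mice, with no overlap (log2 fold change 1.19, adjusted p = 0.736 from limma). Plat, at 1.83 (adjusted p = 0.868 from limma), overlapped. Plaur, the urokinase receptor gene, had −0.43 (adjusted p = 0.940 from limma). Of 17 measured genes for receptors of S100 proteins and their signalling, 9 were higher and 8 lower, with a median of 0.06. Egfr alone was at an unadjusted p under 0.05, and its log2 fold change was 1.85 (adjusted p = 0.738 from limma). Emb, which encodes the S100A8 and S100A9 receptor embigin, had 0.84 (adjusted p = 0.910 from limma). Ager, which encodes RAGE, had −0.28 (adjusted p = 0.928 from limma) and Tlr4 had 0.33 (adjusted p = 0.971 from limma), both named for their role with their values known.

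**Figure D4:**
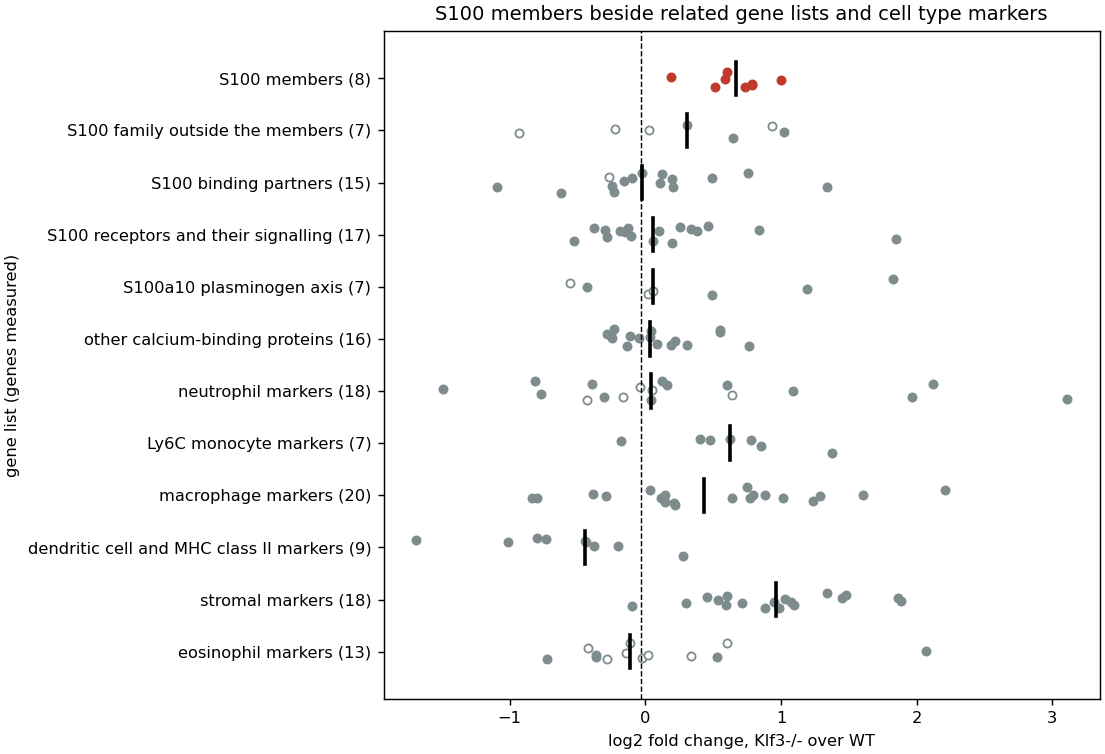
Log2 fold change, Klf3-/- over WT, of the 8 S100 genes (red) and of related gene lists and cell type markers (grey), 1 point per measured gene. Genes below background are drawn as open circles, each list's median as a black bar and the median over all probe sets, −0.03, as a dashed line. The S100 median sits at 0.67, the stromal median at 0.96 and the neutrophil median at 0.04.

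In bulk RNA of a sorted population, fewer cells of a type and less RNA per cell cannot be told apart, and several cell types that make S100 proteins had markers on these arrays. Neutrophil markers, beside which S100a8 and S100a9 are usually found, numbered 18 measured, 13 of them above background, with 10 higher and 8 lower and a median of 0.04. Their mean per array was 6.39, 6.07 and 6.05 log2 units in Klf3-/- mice and 5.37, 6.21 and 6.02 in WT mice. WT mouse 1, the lowest here, was also the array lowest for S100a8, as for S100a1, S100a9, S100a11 and S100a13. Il1r2, Ltf and Lcn2 were the 3 at an unadjusted p under 0.05, all higher, as were 3.1% of all probe sets. Their log2 fold changes were 1.96, 3.11 and 2.12 (limma's adjusted p = 0.734, 0.736 and 0.868). The granule genes Ngp and Camp, named after their values were seen, had 0.13 and −1.49 (adjusted p = 0.995 and 0.943 from limma). S100a8 and the neutrophil mean correlated over the 6 arrays with r = 0.683 (exact permutation p = 0.15, adjusted 0.15) and rho = 0.03 (exact permutation p = 1, adjusted 1), and without the 2 arrays farthest from the median of the neutrophil mean, Klf3-/- mouse 1 and WT mouse 1, r was −0.914. On the deposited log2 scale r was 0.750 (exact permutation p = 0.0486, adjusted 0.0648), rho was 0.371 (exact permutation p = 0.497, adjusted 0.497) and r was 0.426 without the 2 farthest arrays there, WT mice 1 and 3, so the relation depended on the scale and on single arrays.

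Ly6C monocyte markers had 6 of 7 measured genes higher, with a median of 0.63, and array means of 8.74, 9.23 and 8.79 log2 units in Klf3-/- mice, all above the 8.27, 8.19 and 8.43 of WT mice. For F13a1, the coagulation factor XIII gene of monocytes and macrophages, the log2 fold change was 1.37 (adjusted p = 0.868 from limma). Macrophage markers had 16 of 20 higher, with array means of 9.33, 9.74 and 10.80 in Klf3-/- mice and 9.68, 9.002 and 9.72 in WT mice, and the smallest p was that of Lyve1, at 2.21 log2 units, Klf3-/- over WT (adjusted p = 0.862 from limma). Klf3-/- mouse 3, the array highest for S100a1, S100a4, S100a10, S100a11 and S100a13, was also the highest in this mean. Dendritic cell and MHC class II markers had 1 of 9 higher and 8 lower, with a median of −0.45, and Itgax, which encodes CD11c, was at −1.69 (adjusted p = 0.600 from limma).

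Stromal markers, of fibroblasts and other mesenchymal cells that express S100a4 and S100a6, had 17 of 18 measured genes higher and a median of 0.96. Of these markers, 9 were higher at an unadjusted p under 0.05, as were 3.1% of all probe sets. None of these markers passed an adjusted p of 0.05. Their mean per array was 9.11, 10.13 and 9.08 log2 units in Klf3-/- mice, all above the 8.18, 8.505 and 8.78 of WT mice. Igfbp6, the gene most like S100a6 and also 1 of the stromal markers, had 9.75, 9.95 and 9.92 log2 units in Klf3-/- mice and 8.12, 8.06 and 7.80 in WT mice (log2 fold change 1.88, adjusted p = 0.200 from limma). Collagen III and decorin, the stromal genes of highest level, were at 0.30 for Col3a1 and 0.71 for Dcn, Klf3-/- over WT on the log2 scale (adjusted p = 0.945 and 0.901 from limma). For eosinophil markers the array means were 5.22, 5.08 and 5.27 in Klf3-/- mice and 5.13, 5.08 and 5.10 in WT mice, close to the background level of 5.10. The sort selected for CD45, a leukocyte marker that fibroblasts lack, and for F4/80 and Siglec-F, which most neutrophils lack. All 18 measured stromal markers lay above background, and over all arrays Col3a1 averaged 12.7 and Dcn 12.3 log2 units. The part of these other cells in the S100 values was not tested.

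All 8 genes stayed above 0 when values were used as deposited or centred on the array median, when the model or the filter was changed (S100a8 was dropped by the filter on cross-hybridising probe sets) and when any 1 array was left out. S100a6 and S100a10 kept an unadjusted p under 0.05 and showed no overlap with any 1 array left out. On values as deposited, limma's unadjusted p was 0.0521 for S100a10, 0.0314 for S100a6 and 0.0438 for S100a9. With array weights S100a11 joined S100a6 and S100a10, at an unadjusted p of 0.0339 from limma. The number of genes without overlap was 5 without Klf3-/- mouse 1 or WT mouse 2, 4 without WT mouse 3 and 2 without any of the other 3 mice. Leaving out an array makes separation easier, and the share of all probe sets whose Klf3-/- arrays all lay above the WT arrays was then 8.23% to 9.54%. The number at an unadjusted p under 0.05 and higher was 4 without WT mouse 2 or WT mouse 3, where 3.03% and 3.18% of all probe sets were so, and 2 or 3 otherwise. None of the 8 passed adjustment in any setting.

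**Figure D5:**
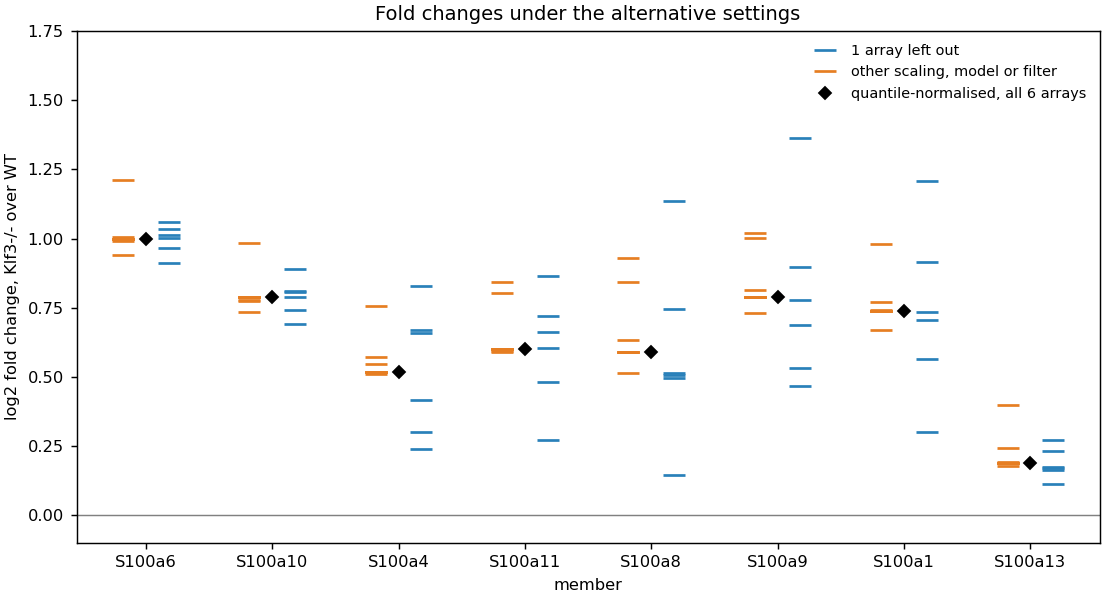
Log2 fold change, Klf3-/- over WT, of each S100 gene under the main setting (black diamonds), with other scalings, models or filters (orange) and with 1 array left out (blue). Every value lies above 0, S100a6 stays between 0.91 and 1.21, and S100a8 runs from 0.15 to 1.14.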

How the data were processed

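RNA of sorted cells from 3 Klf3-/- and 3 WT mice was measured, 1 array per mouse. Partek Genomics Suite v7 was the authors' software, and the deposited values are linear intensities in 1 column per mouse. A figure legend of the paper names RMA normalisation without its steps. All 6 columns were used and 0 left out. Values were converted to log2, quantile-normalised and fitted with limma 3.58.1 (lmFit and eBayes, genotype as the only term) in R 4.3.3, with Benjamini-Hochberg adjustment over 45037 probe sets, and the fits were tested on simulated data. The authors' methods name an analysis of variance with a second factor that is not stated, and a version with genotype alone was run per probe set as an alternative. Exact tests used scipy 1.17.1, numpy 2.4.6 and figures matplotlib 3.10.9. For a gene with several probe sets the one with the highest mean was used. The number of arrays limits the precision. The background was the 95th percentile of 44 olfactory receptor probe sets.

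The genes and lists were chosen with earlier results of these data known. Genes named in the text are the 8 members, the 3 with the highest r to each (the second for S100a6 is not reported here), and per list up to 4 with the smallest p, plus the 2 of highest level for cell type lists. Promoter sequences came from RefSeq (GRCm38.p6), and probe positions are not given, since no assembly is named in the platform annotation. Mice were litter-matched per the labels, which tie no number to a litter. After the genotype mean was subtracted, same-numbered arrays correlated (r = 0.17, 0.23 and 0.21 for mice 1 to 3), each over 0.1. The other combinations ran from −0.18 to −0.01. They are no separate evidence, because the subtraction pushes them below 0 when same-numbered ones lie above it. On the same-numbered values the numbers were taken to pair the arrays, and a fit with the number as a block was an alternative. The others were values as deposited or median-centred, an offset of 16, trend and robust fitting, array weights, filters on dim or cross-hybridising probe sets, gene means and leaving out each array.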

Additional observations from a re-analysis of the deposited data

How the results depend on the processing

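All 8 S100 genes kept a log2 fold change above 0 in all 16 alternatives (15 for S100a8, whose probe set is dropped by the filter on cross-hybridising probe sets), and 0 passed adjustment in any of them. On values as deposited the median of the 8 was 0.91, where the median of all probe sets was 0.13 in place of −0.03, and at an unadjusted p under 0.05 there were 1150 probe sets higher and 62 lower, against 1398 and 1077 after quantile normalisation. With 1 array left out, the median of the 8 ranged from 0.44 to 0.86, the number without overlap from 2 to 5 (5 without Klf3-/- mouse 1 or WT mouse 2, and 4 without WT mouse 3) and the number at an unadjusted p under 0.05 from 2 to 4 (4 without WT mouse 2 or WT mouse 3). With the replicate block 0 of the 8 and 0 of all probe sets passed adjustment, the unadjusted p was under 0.05 for 1734 higher and 1478 lower ones, and 3 of the 8 were under 0.05, where S100a1 joined S100a6 and S100a10 (3.85% of all probe sets were under 0.05 and higher). Among the 8 genes the block changed no other call at either threshold. S100a10 showed no overlap in any of the 16, and S100a6 overlapped on values as deposited alone. By unadjusted p under 0.05, S100a9 took the place of S100a10 on values as deposited, and S100a11 was added with array weights. Pearson's correlation of S100a8 with S100a9 kept its side of the threshold on both other scales, and was 0.932 with each replicate number's mean subtracted, a value added after seeing the data. The table holds no detection calls, and 3 mice per genotype limit the precision of every value.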

Other observations

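Other calcium-binding proteins of the cell, among them calmodulins, reticulocalbins, nucleobindin and calreticulin, were measured beside the S100 genes. Of 16 measured, all above background, 9 were higher and 7 lower in Klf3-/- sorted cells, the median log2 fold change was 0.04, and none passed an adjusted p of 0.05. Rcn3, a reticulocalbin of the secretory pathway that takes part in collagen synthesis, read 9.48, 9.74 and 10.12 log2 units in Klf3-/- mice and 8.85, 8.94 and 9.27 in WT mice (log2 fold change 0.76, adjusted p = 0.862 from limma). Nucb1, a Golgi calcium-binding protein, read 10.06, 9.71 and 9.94 log2 units in Klf3-/- mice and 9.54, 9.05 and 9.46 in WT mice (log2 fold change 0.55, adjusted p = 0.879 from limma). In both genes, and in Pdcd6 (log2 fold change 0.31, adjusted p = 0.926 from limma), every Klf3-/- array lay above every WT array. These were 3 of the 16, against 4.49% of all probe sets. Lcp1, the leukocyte plastin, is not among the 4 of this list with the smallest p. It had 11.82 ± 0.06 log2 units over 3 Klf3-/- mice and 12.06 ± 0.08 over 3 WT mice (SD). This was the other way and also without overlap (log2 fold change −0.24, adjusted p = 0.937 from limma), and the share of all probe sets in this direction was not computed.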
